A study of Nicotiana with 12 samples.

Results

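Under water deficit, PSARK::IPT tobacco leaves held more RNA of a xyloglucan-modifying enzyme, a gibberellin oxidase, a carbonic anhydrase, a violaxanthin de-epoxidase and several photosynthesis genes than wild-type (WT) leaves. They held less RNA of a dehydrin, lipid transfer proteins, 5 of 8 heat-shock genes, 4 of 18 antioxidant genes and malic enzymes. Of all 802 named genes 12.3% were lower, and the other 14 antioxidant genes were not called different. The comparison was of genotypes at the same low water supply: the 3 arrays labelled as PSARK::IPT leaves at 300 mL against the 3 labelled as WT leaves at 300 mL, 6 of the 12 arrays of the series. Differences are given as PSARK::IPT minus WT on the log2 scale, so a value above 0 is higher in PSARK::IPT.

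PSARK::IPT plants, called IPT plants from here, carry IPT, the bacterial gene of isopentenyltransferase, which makes the first intermediate of cytokinin. It stands behind the promoter of SARK, a receptor kinase gene that is switched on as leaves mature and age. Cytokinins delay leaf senescence, and water deficit in WT leaves usually hastens it, with loss of chlorophyll and of photosynthetic proteins. WT plants are the same genus without the transgene, and the labels name the genus Nicotiana and no species. All plants moved from a growth chamber to a greenhouse at 3 weeks of age, and the stressed plants of both genotypes then received 300 mL of water per pot and day for 45 days. Watered plants received 1000 mL and appear here only where a stressed difference is set beside the watered one. Leaves were taken at about 10 weeks of age, with 3 biological replicates and 1 array each per group. The labels do not say how many plants went into a sample or how many independent transgenic lines were used, so p-values measure the spread between these samples.

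The platform was the Affymetrix Tomato Genome Array, so tobacco RNA was read with tomato probes. Each probe set is therefore set only against its own values in the other group. Of the 10101 probe sets tested, 909 carried a gene symbol, for 802 genes, and 176 of these genes have a LOC symbol only. No symbol matched IPT or a cytokinin pathway gene, so the labels were not checked against the transgene. The leaf label was checked against 8 mesophyll markers (CAB4, CAB5, CAB6A, GS2, PSBO, PSBP, PSBR and PsbQ), which lay above the array median on all 12 arrays. In bulk leaves, fewer cells of a type and less RNA per cell cannot be told apart.

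Array medians lay between 3.38 and 3.45, and within a stressed group the correlation of arrays over all probe sets was 0.982 to 0.990. A stressed WT array correlated with a stressed IPT array at 0.961 to 0.968. In a principal component analysis of the 6 stressed arrays the first component held 61.0% of the variance and placed WT arrays at -19.7, -23.6 and -20.1 and IPT arrays at 21.4, 21.1 and 20.9. Stressed WT replicate 2 stood apart on the second component (14.2% of the variance), at -19.4 against 7.08 and 14.1 for the other WT arrays. The same array stood apart in the poly-A controls, bacterial transcripts added before labelling. Their 3' minus 5' difference, which is larger where labelling reached less far along a transcript, was 4.10, 5.44 and 3.82 on stressed WT arrays and 3.69, 3.48 and 3.61 on stressed IPT arrays. The difference between the genotypes was -0.86 (exact two-sided permutation p = 0.1, the smallest that 3 against 3 arrays can give; adjusted p = 0.16 over 8 control measures), and -0.37 without stressed WT replicate 2. The control probe set of 17S ribosomal RNA read 7.10, 9.54 and 8.17 in WT and 6.18, 6.20 and 6.36 in IPT, so the groups did not overlap there either (exact permutation p = 0.1). The same p was reached by 3 further measures. The 3' minus 5' difference of EF1a was 1.65, 1.81 and 1.80 in WT and 1.15, 1.18 and 0.94 in IPT (difference -0.67), with no overlap whether or not WT replicate 2 is counted. That of ubiquitin differed by -0.37 and the poly-A level by 0.52, while the groups overlapped for GAPDH (0.13) and actin (-0.08). The part of these control measures in the results below was not tested beyond a fit that took the poly-A difference as a covariate, which is quoted where it changed a call. That fit rests on the spread of the poly-A difference within groups, to which stressed WT replicate 2 adds most. It does not take in the EF1a, ubiquitin or ribosomal RNA measures, so passing in it is no test of those.

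Between the stressed genotypes 1682 of 10101 probe sets passed (limma, Benjamini-Hochberg adjusted p under 0.05), or 16.7%. Of these, 832 were higher in IPT (8.24%) and 850 lower (8.42%). Those at least 2-fold apart were 192 higher (1.9%) and 157 lower (1.55%). Without adjustment 2768 had a p under 0.05 (27.4%), and the groups of 3 arrays did not overlap in 30% of all probe sets. Among the 802 named genes, each read by its probe set of highest mean, 93 were higher (11.6%) and 99 lower (12.3%), so the named genes were called somewhat more often than all probe sets. The median difference was -0.01 over all probe sets and 0.00 over named genes. Without stressed WT replicate 2, 1467 probe sets passed, and 1310 of these had passed in the same direction with it.

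**Figure D1:**
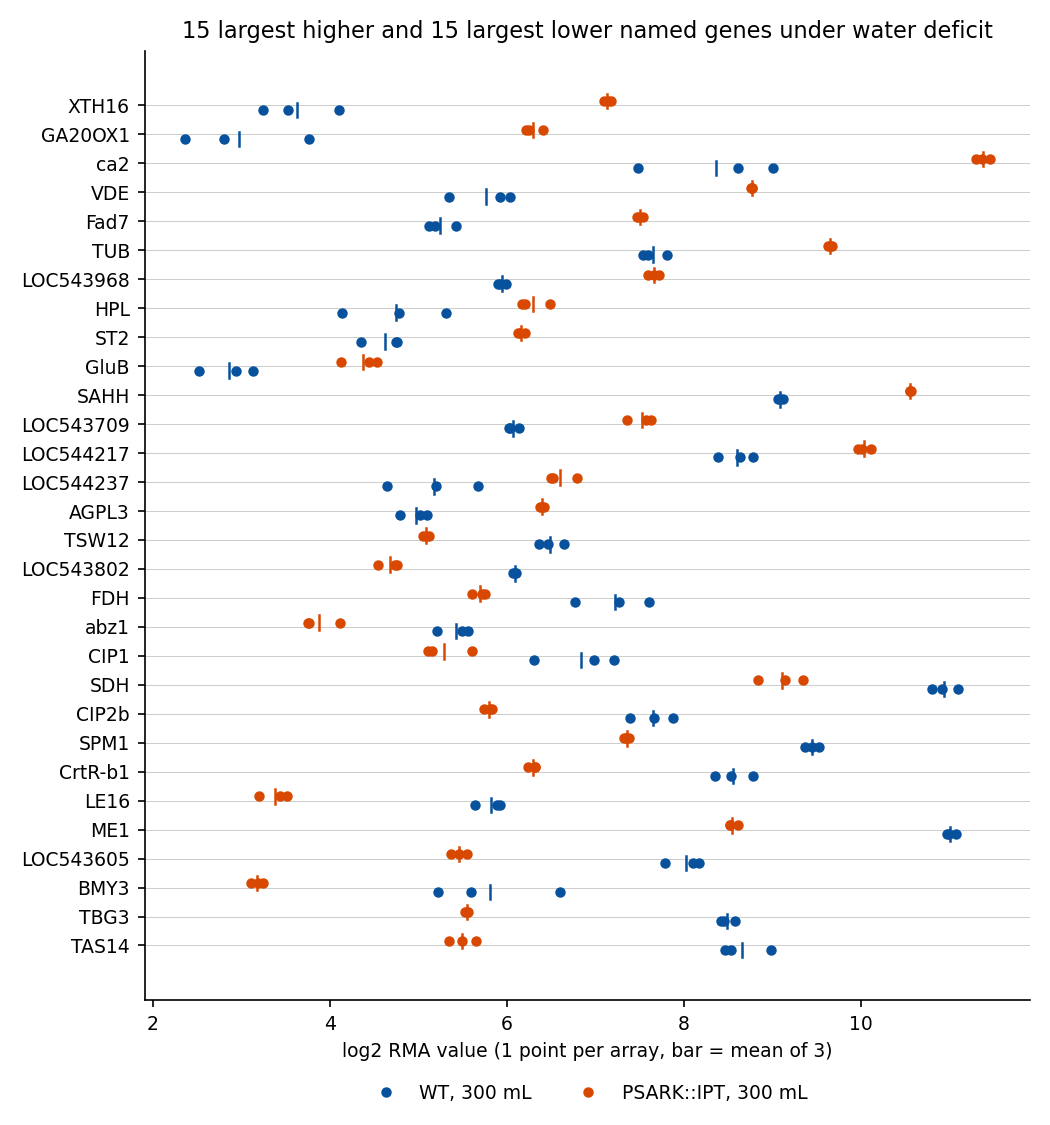
Log2 RMA values (x axis) of the 15 named genes with the largest higher and the 15 with the largest lower difference that passed, with 1 point per stressed array and a bar at each group's mean of 3 arrays; blue is WT and orange is PSARK::IPT, both at 300 mL. In none of the 30 genes do the groups overlap, and the genes were picked for the size of that difference.

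The genes furthest apart were XTH16, GA20OX1, ca2 and VDE on the higher side and TAS14, TBG3, BMY3 and ME1 on the lower side, as the plot of the largest differences by array shows. They were picked by size, so what follows gives their values by role, together with lists of genes of the same pathways. Lists were set by gene symbol and are described by counts and medians. Their counts are to be read against the 802 named genes, of which 11.6% were higher and 12.3% lower. Over all probe sets the shares were 8.24% and 8.42%. Only a gene that passed is called higher or lower.

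**Figure D2:**
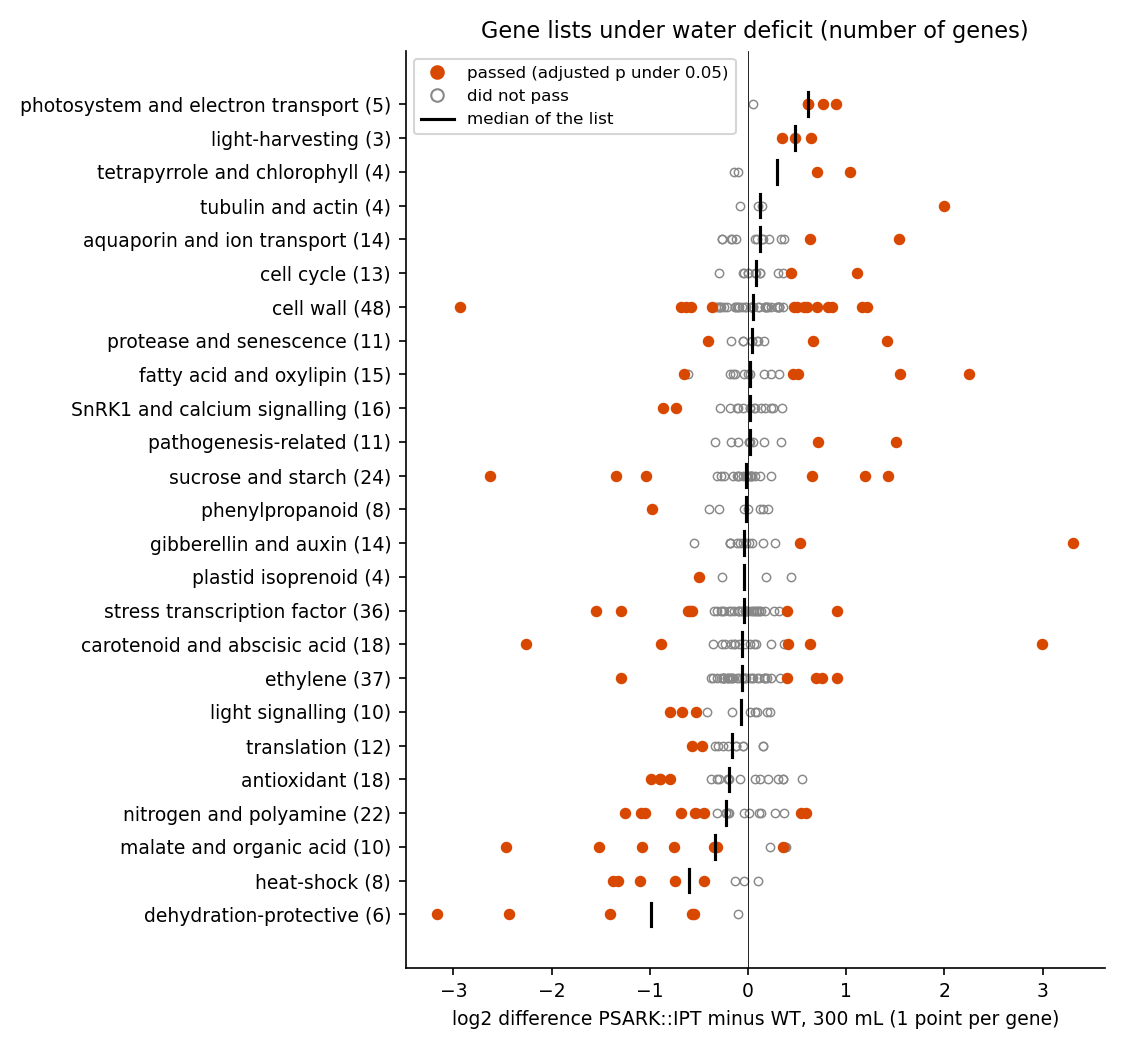
Log2 difference, PSARK::IPT minus WT at 300 mL (x axis), of each gene in the lists named on the y axis, with their number of genes in brackets and 1 point per gene; orange points passed, grey rings did not, and the black bar is the list's median. The photosystem list has the highest median (0.61) and the dehydration-protective list the lowest (-0.99); most other medians lie near 0.

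Photosynthesis genes were higher in stressed IPT leaves. All 3 light-harvesting genes, which encode chlorophyll a/b-binding proteins of the antenna, were higher (median 0.48), and 4 of 5 photosystem and electron transport genes were (median 0.61), with 0 lower in either list. CAB4 read 9.93, 9.91 and 9.90 on stressed WT arrays and 10.64, 10.51 and 10.53 on stressed IPT arrays. The 3 WT arrays lay within 0.03 of each other, and every IPT array lay above them (difference 0.65, SE 0.10, limma adjusted p = 2.49e-04). CAB6A stood at 8.32, 8.32 and 8.35 against 8.87, 8.72 and 8.83, a difference of 0.48 (SE 0.12). CAB5 differed least (0.35, SE 0.11) and did not pass without stressed WT replicate 1 or 3 or stressed IPT replicate 1, 2 or 3 (adjusted p up to 0.161).

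Of the oxygen-evolving complex of photosystem II, PSBP was furthest apart, at 10.05, 10.20 and 10.25 in WT and 11.07, 11.02 and 11.09 in IPT (0.89, SE 0.11, adjusted p = 1.65e-05). PsbQ read 11.16, 11.13 and 11.01 against 11.90, 11.85 and 11.85 (0.77, SE 0.10). PSBO, which holds the manganese cluster in place, read 12.25, 12.34 and 12.50 against 13.01, 12.94 and 12.98 (0.61, SE 0.11). PSBO is among the brightest probe sets, and with quantile normalization its difference was 0.31 and did not pass. PETE, plastocyanin, which carries electrons from cytochrome b6f to photosystem I, read 8.42, 8.50 and 8.21 against 8.93, 9.03 and 8.99 (0.61, SE 0.13). PSBR, of the same photosystem, was at 0.05 and did not pass. With the poly-A covariate CAB4 and the 4 photosystem genes passed, and CAB5 (0.40) and CAB6A (0.45) did not.

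The larger plastid differences lay outside these complexes. The carbonic anhydrase ca2, which interconverts carbon dioxide and bicarbonate, read 8.60, 7.48 and 9.01 in stressed WT and 11.45, 11.30 and 11.36 in stressed IPT by the probe set that was furthest apart (8.03-fold, difference 3.01, SE 0.25). Stressed WT replicate 2 was the lowest of the 6, and the WT arrays spread over 1.53 log2 units where the IPT arrays spread over 0.15. The other 3 probe sets of ca2 stood at 2.94, 0.86 and 0.24, the last of them not passing. The first stood at 2.35 and passed with the poly-A covariate. Fad7, a plastid omega-3 desaturase that makes the trienoic fatty acids of thylakoid membranes, read 5.42, 5.12 and 5.18 against 7.49, 7.54 and 7.46 (4.78-fold, 2.26, SE 0.12).

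In the supply of tetrapyrroles, GSA-AT, the glutamate-1-semialdehyde aminotransferase that makes the precursor of chlorophyll and haem, read 7.23, 7.03 and 7.29 in WT and 8.26, 8.29 and 8.10 in IPT (2.05-fold, 1.04, SE 0.11, adjusted p = 5.90e-06). POR2 was higher by 0.70 (SE 0.10). The haem oxygenase genes AUREA (-0.10) and HO2 (-0.14), on the branch that leads to the phytochrome chromophore, did not pass. GS2, the plastid glutamine synthetase that recovers ammonium from photorespiration, read 11.79, 11.86 and 11.63 against 12.37, 12.27 and 12.26 (0.54, SE 0.11). The mean log2 level of the 8 mesophyll markers, which include GS2, the light-harvesting and the photosystem II genes, lay between 10.08 and 10.13 on stressed WT arrays and between 10.60 and 10.71 on stressed IPT arrays.

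**Figure D3:**
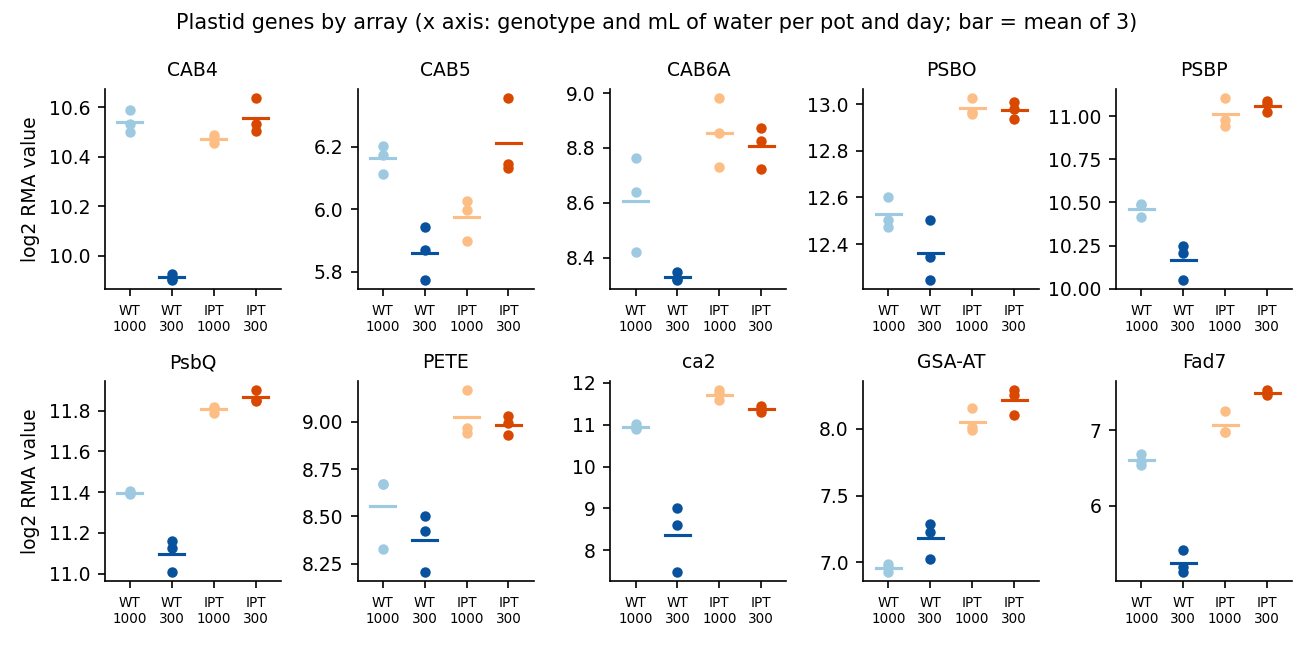
Log2 RMA values (y axis, its own range per gene) of 10 plastid genes on all 12 arrays, by genotype and mL of water per pot and day (x axis), with 1 point per array and a bar at the mean of 3. CAB4 and CAB5 separate the stressed genotypes, while with full water their genotype differences are -0.07 and -0.19; PSBO, PSBP and GSA-AT are higher in PSARK::IPT at both supplies.

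Of 18 genes of carotenoid and abscisic acid synthesis and cleavage, 3 were higher, 2 lower and 13 did not pass (median -0.06). VDE, violaxanthin de-epoxidase, which turns violaxanthin into zeaxanthin in excess light, read 6.04, 5.34 and 5.92 in WT and 8.77, 8.76 and 8.76 in IPT (7.98-fold, 3.00, SE 0.17). Its other probe set was higher by 0.66. CrtR-b1, a beta-carotene hydroxylase that makes zeaxanthin from beta-carotene, ran the other way, at 8.53, 8.34 and 8.78 against 6.32, 6.31 and 6.24 (4.79-fold lower, -2.26, SE 0.13). CCD1A, a carotenoid cleavage dioxygenase, was lower on every IPT array than on every WT array, at 10.04, 10.20 and 10.16 against 9.18, 9.36 and 9.20 (-0.89, SE 0.12).

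CRTL-E-1, the lycopene epsilon-cyclase on the way to lutein, was higher (0.63, SE 0.16), as was ZDS, zeta-carotene desaturase (0.41, SE 0.13). CRTL-E-1 did not pass without stressed WT replicate 1 or stressed IPT replicate 3 (adjusted p up to 0.0618), and ZDS did not pass without stressed WT replicate 1 or 2 or stressed IPT replicate 1, 2 or 3 (adjusted p up to 0.13). Genes nearer to abscisic acid did not pass: the epoxidase ZEP (-0.24), NCED1, whose product cleaves epoxycarotenoids to the precursor of abscisic acid (0.08), the molybdenum cofactor gene FLACCA (0.02) and the aldehyde oxidases AO1 (0.37), TAO2 (-0.09) and TAO3 (-0.03). The phytoene synthases PSY2 (-0.36) and Psy1 (-0.27) and the plastid terminal oxidase PTOX (-0.13) did not pass either. Upstream, in the plastid isoprenoid pathway, DXR was lower (-0.50, SE 0.13) and DXS (0.44), HDS (-0.27) and ISPE (0.18) did not pass. DXS ranged from 0.28 to 0.60 over the fits that left out 1 stressed array and passed without stressed IPT replicate 2 (adjusted p = 0.0217). DXR did not pass without stressed IPT replicate 1 (adjusted p up to 0.0564). Under the poly-A covariate CRTL-E-1 (0.56), ZDS (0.24) and DXR (-0.50) did not pass.

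Genes of protection against drying were lower in stressed IPT leaves. Of 6, 5 were lower, 0 higher and 1 did not pass (median -0.99, against -0.01 over all probe sets). TAS14, a dehydrin, a hydrophilic protein that abscisic acid and salt induce in tomato, read 8.53, 8.98 and 8.46 in WT and 5.34, 5.49 and 5.64 in IPT (8.95-fold lower, -3.16, SE 0.15, adjusted p = 2.39e-10). Its groups lay 2.82 log2 units apart at their closest arrays. LE16, a lipid transfer protein gene that drought induces in tomato, read 5.92, 5.64 and 5.89 against 3.43, 3.52 and 3.20 (-2.43, SE 0.21), and TSW12, of the same family, 6.36, 6.46 and 6.64 against 5.11, 5.08 and 5.05 (-1.40, SE 0.11).

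The lower values of ltpg1 (-0.57, SE 0.18) and of ER5, a late embryogenesis abundant gene (-0.55, SE 0.16), were small. ER5 did not pass without stressed WT replicate 2 or 3 or stressed IPT replicate 1, 2 or 3 (adjusted p up to 0.138). The call of ltpg1 was lost in each of the 6 fits that left out 1 stressed array (adjusted p between 0.0636 and 0.103). LEA14 (-0.10) did not pass. TAS14, LE16 and TSW12 passed whichever 1 stressed array was dropped, and under the poly-A covariate. They were the 3 of 6 that were lower under that covariate and in all those fits but the one without stressed WT replicate 1, in which 4 were.

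The heat-shock list had 8 genes, 5 of them lower and none higher (median -0.60). HSP17-6, a small heat-shock gene, read 4.41, 4.53 and 4.88 in WT and 3.30, 3.35 and 3.04 in IPT (-1.37, SE 0.19, adjusted p = 5.99e-05). HSP21, a small heat-shock protein of the plastid, read 5.12, 4.75 and 5.04 against 3.76, 3.72 and 3.46 (-1.32, SE 0.15). HSC80, an HSP90 chaperone, read 4.51, 4.60 and 4.56 against 3.66, 3.24 and 3.46 (-1.10, SE 0.12). HSP17-6 lay below the array median on all 3 stressed IPT arrays, and HSC80 on 1 of them.

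Another HSP90 gene, Hsp90-1, was also lower (-0.45, SE 0.11). The small heat-shock gene vis1 read 3.47, 3.39 and 2.48 against 2.24, 2.42 and 2.43 (-0.75, SE 0.20) and did not pass without stressed WT replicate 1 or 2 or stressed IPT replicate 1 (adjusted p up to 0.0901). It lay below the array median on every stressed IPT array and on stressed WT replicates 2 and 3. HSP17.4 (-0.13), ER-SHSP of the endoplasmic reticulum (0.10) and MTSHP of the mitochondrion (-0.04) did not pass. With the poly-A covariate 3 of the 8 were lower, Hsp90-1 (-0.42, adjusted p = 0.0529) and vis1 no longer passing.

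Of 18 enzymes that remove active oxygen, 4 were lower, 0 higher and 14 did not pass (median -0.19). In each fit that left out 1 stressed array 4 were lower, and 1 was higher without stressed WT replicate 2 (SODCP.2), without stressed WT replicate 3 (MDHAR) and with the poly-A covariate (APX). CAT2, a catalase, read 12.86, 12.67 and 12.85 in WT and 11.85, 11.81 and 11.75 in IPT (1.99-fold lower, -0.99, SE 0.11). SODCC.1, the cytosolic copper-zinc superoxide dismutase, read 9.86, 9.86 and 9.86 against 8.91, 9.0 and 8.98 (-0.89, SE 0.10). DHAR1, a dehydroascorbate reductase that recycles ascorbate, read 8.16, 7.93 and 8.16 against 7.14, 7.14 and 7.29 (-0.89, SE 0.11), and its other probe set was lower by 0.77.

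GPXle-1, a glutathione peroxidase, read 10.03, 9.89 and 9.80 against 9.08, 9.11 and 9.14 (-0.79, SE 0.11). Members that did not pass included the plastid superoxide dismutase SODCP.2 (0.36), the ascorbate peroxidases APX (0.36), APX1 (0.21) and APX2 (-0.30) and MDHAR, monodehydroascorbate reductase (0.55). FESOD, an iron superoxide dismutase outside the list, was higher (0.48, SE 0.11) and was named after its values were seen.

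**Figure D4:**
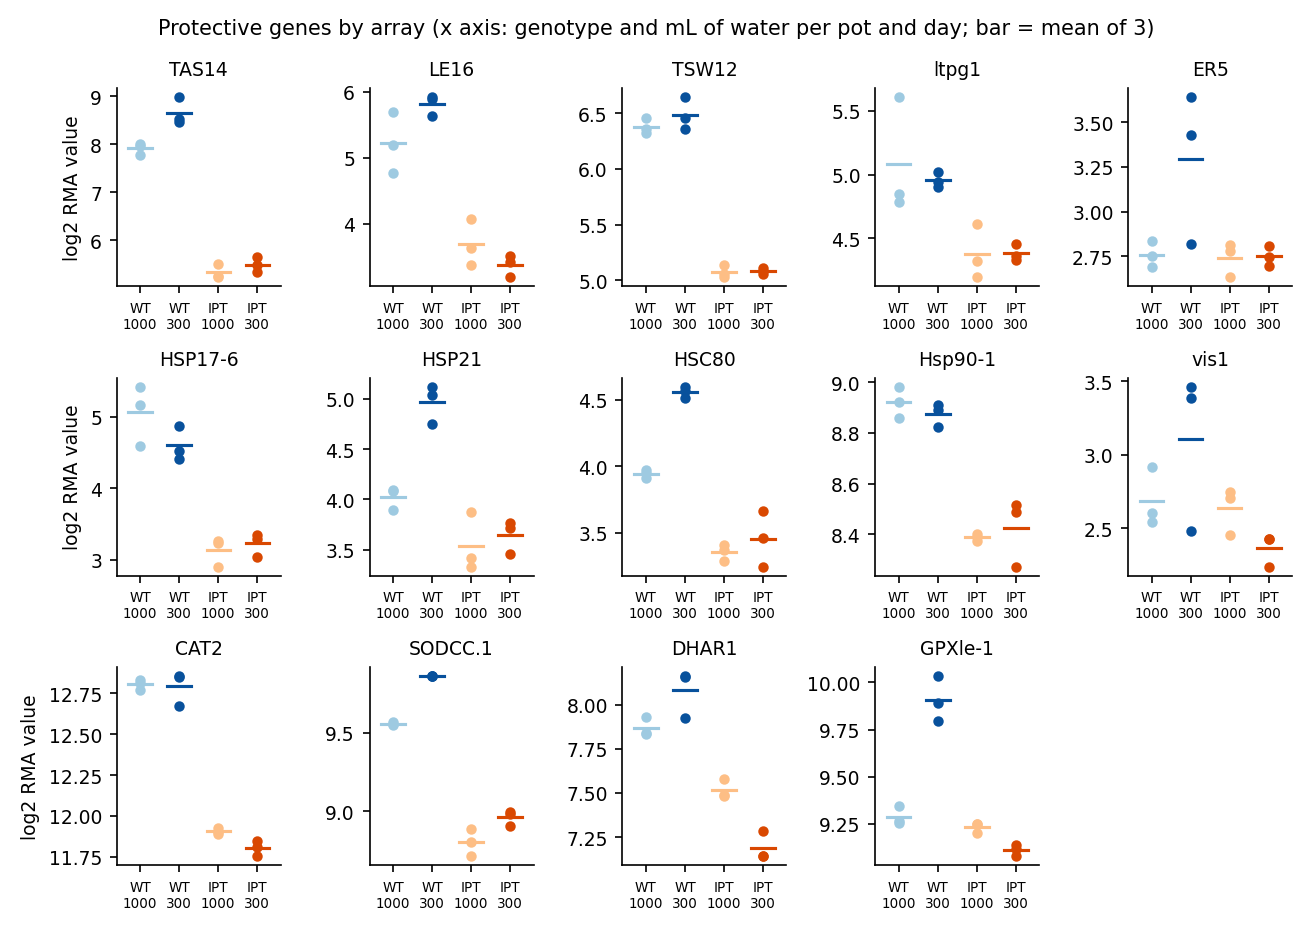
Log2 RMA values (y axis, its own range per gene) of the 14 dehydration-protective, heat-shock and antioxidant genes that were lower in PSARK::IPT at 300 mL, on all 12 arrays by genotype and mL of water per pot and day (x axis), with 1 point per array and a bar at the mean of 3. TAS14, TSW12, HSP17-6 and CAT2 are also lower in PSARK::IPT with full water, whereas ER5, vis1 and GPXle-1 are close between genotypes there.

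Of 48 cell wall genes 9 were higher, 5 lower and 34 did not pass (median 0.05). XTH16, a xyloglucan endotransglucosylase/hydrolase, an enzyme that cuts and rejoins the xyloglucan tethers of the wall, was higher by all 3 of its probe sets. By the one furthest apart it read 4.10, 3.24 and 3.52 in WT and 7.17, 7.14 and 7.09 in IPT (11.4-fold, 3.51, SE 0.17). The others stood at 1.41 and 1.21. This probe set was above the array median on 2 of the 3 stressed WT arrays and on every stressed IPT array. XTH3 was higher (0.47, SE 0.13) and did not pass without stressed WT replicate 2 or stressed IPT replicate 2 or 3 (adjusted p up to 0.0756), and 7 other XTH or XET genes did not pass. It also did not pass with the poly-A covariate (0.43).

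The beta-galactosidases, which trim galactose from wall polymers, went both ways. TBG3 read 8.45, 8.41 and 8.58 in WT and 5.56, 5.53 and 5.54 in IPT (7.66-fold lower, -2.94, SE 0.12, adjusted p = 5.73e-11), and TBG4 (-0.58), TBG5 (-0.68) and TBG6 (-0.63) were lower too. TBG7 (0.81, SE 0.14) and TBG1 (0.60, SE 0.15) were higher, and TBG2 (0.20) did not pass. TBG4 lay below the array median on all 12 arrays. TBG5 did not pass without stressed IPT replicate 2 (adjusted p up to 0.0588), TBG6 did not pass without stressed WT replicate 2 or stressed IPT replicate 1 or 2 (adjusted p up to 0.142), and TBG1 did not pass without stressed IPT replicate 2 (adjusted p up to 0.0582). The poly-A covariate left TBG5 at -0.37 and TBG6 at -0.45, neither passing.

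Among endoglucanases CEL8 was higher (2.98, 3.39 and 3.21 against 4.37, 4.36 and 4.33; 1.16, SE 0.12), as was Cel1 (0.57), and Cel3 was lower (-0.37). Cel1 did not pass without stressed WT replicate 2 (adjusted p up to 0.0566), and Cel3 did not pass without stressed WT replicate 1 or 3 or stressed IPT replicate 1, 2 or 3 (adjusted p up to 0.124). Expansins loosen the wall in growing cells. EXP2 (0.85, SE 0.13) and EXPA4 (0.50, SE 0.14) were higher, and the other 10 expansin genes stood between -0.33 and 0.31 and did not pass. EXPA4 did not pass without stressed WT replicate 3 or stressed IPT replicate 2 (adjusted p up to 0.117). Cel1 (0.46), Cel3 (-0.38) and EXPA4 (0.55) did not pass with the poly-A covariate either. PMEU1, a pectin methylesterase, was higher (5.15, 5.12 and 5.0 against 5.78, 6.06 and 5.53; 0.70, SE 0.15).

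Genes of growth and division had a few members that were higher. TUB, a tubulin, read 7.60, 7.54 and 7.81 in WT and 9.64, 9.67 and 9.63 in IPT (4.0-fold, 2.0, SE 0.12), while ACT (-0.08), profilin (0.14) and formin-I2I (0.11) did not pass. CYCD3, the D-type cyclin that cytokinin induces in Arabidopsis, read 4.29, 4.03 and 4.35 against 5.48, 5.29 and 5.24 (2.16-fold, 1.11, SE 0.17, adjusted p = 1.96e-04). Of 13 cell cycle genes 2 were higher and 0 lower (median 0.08), the other being cdc2A-2 (0.43), which did not pass without stressed WT replicate 1 or 2 or stressed IPT replicate 1, 2 or 3 (adjusted p up to 0.144) or with the poly-A covariate (0.48). Genes of S phase and mitosis, PCNA (0.00), CycB2 (-0.04), CDKB1 (0.00) and CDKB2 (0.12), did not pass. The mean level of 12 markers of dividing and meristem cells was 3.73 to 3.77 on stressed WT arrays and 4.05 to 4.07 on stressed IPT arrays. Of the 12, 2 passed, TUB and CYCD3, and the median difference of the list was 0.04.

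Of 14 gibberellin and auxin genes 2 were higher and 0 lower (median -0.04). GA20OX1, a gibberellin 20-oxidase, which makes the precursors of active gibberellins, read 3.77, 2.36 and 2.81 in WT and 6.40, 6.24 and 6.21 in IPT (9.92-fold, 3.31, SE 0.29). The 3 WT arrays spread over 1.41 log2 units, and 2 of them lay below the array median. 20ox-3 was higher (0.53, SE 0.14) at levels below the array median on all 12 arrays, and did not pass without stressed WT replicate 2 or 3 (adjusted p up to 0.0561) or with the poly-A covariate (0.42). GA3ox1 (-0.11), the DELLA repressor GAI (-0.08) and the 6 auxin-response IAA genes (between -0.55 and 0.15) did not pass. CYP85A1, a brassinosteroid oxidase named after its values were seen, was higher (3.95, 4.23 and 3.86 against 4.72, 4.84 and 5.15; 0.89, SE 0.16).

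Of 10 genes of malate and other organic acids, with formate dehydrogenase among them, 6 were lower, 1 higher and 3 did not pass (median -0.33). ME1, a malic enzyme, which turns malate into pyruvate and carbon dioxide, read 11.06, 10.99 and 10.97 in WT and 8.60, 8.52 and 8.51 in IPT (5.51-fold lower, -2.46, SE 0.10, adjusted p = 7.97e-11). ME2, another malic enzyme, read 8.70, 8.50 and 8.66 against 7.58, 7.54 and 7.5 (-1.08, SE 0.11). FDH, the mitochondrial formate dehydrogenase, read 7.61, 6.77 and 7.26 against 5.61, 5.72 and 5.75 (-1.52, SE 0.16). The malate dehydrogenase cMDH was lower (-0.75, SE 0.15). Differences of gMDH (-0.32), mdh (-0.35) and, in the other direction, mMDH1 (0.35) passed only narrowly. Over the fits that left out 1 stressed array 4 or 5 were lower and 0 or 1 higher, and without stressed WT replicate 2, as with the poly-A covariate, 4 were lower and 0 higher. Those 4 were ME1, ME2, FDH and cMDH with the covariate. gMDH did not pass without stressed WT replicate 2 or 3 or stressed IPT replicate 1, 2 or 3 (adjusted p up to 0.115), and mdh did not pass without stressed WT replicate 1 or 2 or stressed IPT replicate 1, 2 or 3 (adjusted p up to 0.146). The call of mMDH1 was lost in each of the 6 fits that left out 1 stressed array (adjusted p between 0.0508 and 0.137).

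Of 24 sucrose and starch genes 3 were higher, 3 lower and 18 did not pass (median -0.02), and these counts were the same under the poly-A covariate and when any 1 stressed array was dropped. BMY3, a beta-amylase by name, was lower by one probe set, at 5.22, 6.60 and 5.59 in WT and 3.18, 3.24 and 3.11 in IPT (6.17-fold, -2.63, SE 0.31). Stressed WT replicate 2 was the highest array for it, and the other probe sets were lower by 0.58 and, not passing, at -0.51. sus3, a sucrose synthase, read 5.52, 5.84 and 5.55 against 4.36, 4.25 and 4.27 (-1.35, SE 0.15), and SPS, sucrose-phosphate synthase, 5.76, 5.51 and 5.79 against 5.03, 4.60 and 4.33 (-1.03, SE 0.21). On the higher side stood AGPL3, a large subunit of ADP-glucose pyrophosphorylase, the step that commits carbon to starch, at 4.79, 5.02 and 5.09 against 6.37, 6.40 and 6.41 (2.68-fold, 1.42, SE 0.15). FRK2, a fructokinase, was higher (6.80, 6.90 and 6.53 against 7.85, 8.08 and 7.89; 1.2, SE 0.12), as was HT1, a hexose transporter (0.66, SE 0.12). AgpL1 (0.03), AGP-S2 (0.02), the other fructokinases and the invertases AI, LIN7, LIN8, Wiv-1 and lin5 did not pass.

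The nitrogen and polyamine list had 22 genes, 6 of them lower and 2 higher (median -0.22). ARG1, an arginase, read 5.57, 5.67 and 5.73 in WT and 4.48, 4.65 and 4.56 in IPT (-1.09, SE 0.14). PRO2, a gene of proline synthesis by its name, read 6.87, 6.28 and 6.70 against 5.68, 5.78 and 5.26 (-1.04, SE 0.16), and PRO1 (-0.20) did not pass. The arginine decarboxylases ADC (-0.54) and adc1 (-0.68), which open the route to putrescine, were lower, and ornithine decarboxylase, ODC (0.12), did not pass. ADC did not pass without stressed IPT replicate 2 (adjusted p up to 0.065). Neither ADC (-0.50) nor adc1 (-0.45) passed with the poly-A covariate. Of the 4 probe sets of adc1, 2 were lower and 2 did not pass, at -0.15 and 0.27.

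The methyl cycle was split. SAM1, an S-adenosylmethionine synthetase, was lower (10.39, 10.49 and 9.73 in WT and 8.90, 8.93 and 9.01 in IPT; 2.39-fold, -1.25, SE 0.16). SAHH, S-adenosylhomocysteine hydrolase, which clears the product of methylation reactions, was higher, at 9.12, 9.09 and 9.06 against 10.55, 10.55 and 10.57 (2.77-fold, 1.47, SE 0.10, adjusted p = 3.73e-08). The 3 SAHH values of each group lay within 0.07 of each other. SAM3 (0.01) did not pass. The GABA transaminase genes differed in sign, GABA-TP1 at -0.44 and GABA-TP2 at 0.59, and GABA-TP1 did not pass without stressed WT replicate 1 or 2 or stressed IPT replicate 1, 2 or 3 (adjusted p up to 0.181) or with the poly-A covariate (-0.25).

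Of 15 genes of fatty acid desaturation and oxylipins 4 were higher, 1 lower and 10 did not pass (median 0.02). Beside Fad7, HPL, the hydroperoxide lyase that makes the green leaf aldehydes, read 5.31, 4.78 and 4.14 in WT and 6.49, 6.17 and 6.21 in IPT (2.93-fold, 1.55, SE 0.24). On the jasmonate branch AOC, allene oxide cyclase, was higher (0.51, SE 0.14), and AOS (0.24), OPR3 (0.16) and the jasmonate receptor COI1 (-0.15) did not pass. AOC did not pass without stressed WT replicate 3 or stressed IPT replicate 1 (adjusted p up to 0.0974). OPR1 (0.46) was higher and ALPHA-DOX2, an alpha-dioxygenase (-0.65), lower. OPR1 did not pass without stressed WT replicate 1 or 2 or stressed IPT replicate 1, 2 or 3 (adjusted p up to 0.195), and ALPHA-DOX2 did not pass without stressed WT replicate 1 or 2 or stressed IPT replicate 1 or 2 (adjusted p up to 0.126). Under the poly-A covariate AOC (0.50), OPR1 (0.42) and ALPHA-DOX2 (-0.27) did not pass.

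Of 37 ethylene genes, 4 were higher, 1 lower and 32 did not pass (median -0.06). The 1 lower gene was JERF1 and 2 of the higher ones were PTI4 and JERF3, described below with the transcription factors. The ACC oxidases ACO4 (0.76, SE 0.18) and ACO6 (0.69, SE 0.20), of the last step of ethylene synthesis, were higher. ACO4 was at 0.49 and still passed without stressed WT replicate 3. ACO6 did not pass without stressed WT replicate 2 or stressed IPT replicate 1, 2 or 3 (adjusted p up to 0.131), was at 0.43 without stressed WT replicate 2, and its other probe sets (-0.12 and 0.41) did not pass. It was at 0.24 and did not pass with the poly-A covariate. The 8 ACC synthases (between -0.36 and 0.33), the 5 receptors (between -0.25 and 0.23) and the 4 EIL factors (between -0.25 and -0.16) did not pass. Without stressed WT replicate 2 the counts were 2 higher and 1 lower.

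Of 36 stress-related transcription factors, ethylene-response factors included, 5 were lower, 2 higher and 29 did not pass (median -0.04). The bZIP factor abz1 read 5.49, 5.21 and 5.56 in WT and 3.75, 4.12 and 3.76 in IPT (2.92-fold lower, -1.55, SE 0.15). JERF1, an ethylene-response factor that jasmonate induces, read 6.42, 7.07 and 7.17 against 5.52, 5.60 and 5.63 (-1.30, SE 0.16). AREB1, which binds abscisic acid-responsive elements, was lower (-0.57, SE 0.14), as were the NAC factor JA2 (-0.62) and WRKY2 (-0.59). JA2 did not pass without stressed WT replicate 3 or stressed IPT replicate 1 (adjusted p up to 0.0538), and WRKY2 did not pass without stressed WT replicate 2 or stressed IPT replicate 1 (adjusted p up to 0.0566). PTI4, an ethylene-response factor of pathogen defence, was higher (3.45, 3.20 and 2.96 against 4.21, 3.90 and 4.22; 0.90, SE 0.16), and so was JERF3 (0.39), which did not pass without stressed WT replicate 2 or 3 or stressed IPT replicate 1, 2 or 3 (adjusted p up to 0.151). The DREB genes DREB1 (-0.19), DREB2 (0.12) and DREB3 (0.03) and CBF1 (-0.26), of the abscisic acid-independent route, did not pass. Of these 7 factors abz1, JERF1 and PTI4 also passed with the poly-A covariate, and AREB1 (-0.47), JA2 (-0.61), WRKY2 (-0.41) and JERF3 (0.35) did not.

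In the SnRK1 energy-sensing kinase, SNF1, the catalytic subunit, read 9.55, 9.75 and 9.66 in WT and 8.81, 8.79 and 8.77 in IPT (-0.86, SE 0.11), and GAL83, a beta subunit, 7.39, 7.06 and 7.5 against 6.51, 6.60 and 6.64 (-0.73, SE 0.13). Both were lower, and SNF4 (-0.29) did not pass. Of the 16 SnRK1, calcium and MAP kinase genes counted, these 2 were the ones that passed (median 0.02). In light signalling 3 of 10 genes were lower and 0 higher: the photoreceptor PHYA (-0.80) and the ubiquitin ligase genes CUL4 (-0.67) and COP1 (-0.53). PHYA read 7.02, 7.5 and 6.14 against 6.00, 6.08 and 6.18, so the groups overlapped. PHYA did not pass without stressed WT replicate 1 or 2 or stressed IPT replicate 1, 2 or 3 (adjusted p up to 0.136) and was at -0.49 without stressed WT replicate 2. COP1 did not pass without stressed WT replicate 1 or stressed IPT replicate 1, 2 or 3 (adjusted p up to 0.11). With the poly-A covariate 0 of the 10 passed, PHYA standing at -0.27.

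Defence genes had 2 of 11 members higher and 0 lower (median 0.02). GluB, a beta-1,3-glucanase, read 2.52, 3.13 and 2.94 in WT and 4.13, 4.44 and 4.53 in IPT (2.84-fold, 1.51, SE 0.17), and CHI9, a basic chitinase, 3.97, 3.64 and 3.74 against 4.21, 4.64 and 4.64 (0.71, SE 0.14). PR1b1 (0.06), P4 (-0.33), PR-5 (0.34) and the other chitinases did not pass. Of 11 proteases 2 were higher, the subtilases SBT1 (3.64, 4.04 and 3.97 against 5.33, 5.16 and 5.41; 1.42, SE 0.13) and sbt4a (0.66, SE 0.12, below the array median on all 12 arrays). The leucine aminopeptidase LAPA2 was lower (-0.41) and did not pass without stressed WT replicate 2 or 3 or stressed IPT replicate 1 or 3 (adjusted p up to 0.103) or with the poly-A covariate (-0.43). VPE5, a vacuolar processing enzyme, was at -0.17 and did not pass.

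Among 14 aquaporin and transporter genes 2 were higher and 0 lower (median 0.12). ST2, a sulfate transporter, read 4.35, 4.76 and 4.75 in WT and 6.21, 6.15 and 6.12 in IPT (2.91-fold, 1.54, SE 0.16), and NRAMP3, a metal transporter of the vacuole, was higher by 0.63 (SE 0.11). Of 8 phenylpropanoid genes 1 was lower, hqt, the transferase that makes chlorogenic acid (4.59, 4.81 and 4.70 against 3.76, 3.87 and 3.53; -0.98, SE 0.12), and the chalcone synthases CHS1 (-0.30) and CHS2 (-0.04) did not pass. Of 12 translation genes 2 were lower, eIF-5A1 (-0.57, SE 0.11) and eIF-5A3 (-0.47, SE 0.10). Of 5 root genes 1 was higher, NRAMP3, and their mean level was 3.79 to 3.90 in WT and 4.02 to 4.14 in IPT. None of 5 flower and pollen genes (WT 3.11 to 3.34, IPT 3.07 to 3.14) or of 5 fruit genes (WT 3.26 to 3.43, IPT 3.28 to 3.54) passed in the limma fit. In that fit 0 of the first and 3 of the second had an unadjusted p under 0.05, against 27.4% of all probe sets. The members of these marker and phenylpropanoid lists with the smallest p that did not pass were Nramp2 (0.33), MADS1 (-0.27), TDR8 (-0.13), 2A11 (0.46), RIN (0.31) and CCR1 (-0.40). Without stressed WT replicate 3, MADS1 stood at -0.07 and TDR8 at -0.02.

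Some of the genes furthest apart have no role given here. On the lower side these were SPM1 (9.44, 9.36 and 9.53 against 7.35, 7.38 and 7.32; -2.09), CIP2b (-1.85), SDH (-1.83), CIP1 (-1.55), LOC543605 (-2.56) and LOC543802 (-1.41). The other probe set of CIP1 was at -0.02 and did not pass. On the higher side they were LOC543968 (1.72), LOC543709 (1.46), LOC544217 (1.43) and LOC544237 (1.43). The probe sets furthest apart of all carry no symbol in the annotation used here. The one with the largest higher difference was 37.9-fold higher in IPT, at 1.82, 1.76 and 2.26 against 7.20, 7.18 and 7.19, and lay below the array median on the 3 stressed WT arrays. The next was 28.8-fold higher, at 4.57, 3.54 and 3.75 against 8.76, 8.79 and 8.85. The one with the largest lower difference was 9.50-fold lower, at 8.53, 8.92 and 8.49 against 5.56, 5.18 and 5.47.

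The genotype difference under water deficit was set beside the difference between the watered genotypes, which uses none of the same arrays, and the difference of the 2 was tested in the same fit. The poly-A controls also differed between the watered genotypes. Their level was 9.88, 9.93 and 9.88 on WT arrays and 8.09, 8.30 and 7.99 on IPT arrays. Their 3' minus 5' difference was 2.19, 2.17 and 2.32 against 2.81, 2.35 and 3.21. On stressed WT arrays it was 4.10, 5.44 and 3.82. The part of these measures was not tested beyond the covariate fit. With full water 1396 probe sets passed (13.8%), 778 higher (7.7%) and 618 lower (6.12%), a split that became 606 higher and 743 lower when each array was centred on its median. Of the 1682 that passed under water deficit, 777 passed with full water in the same direction, which is 46.2% of the stressed and 55.7% of the watered calls, and 29 passed in the opposite direction. Of the 349 at least 2-fold apart under water deficit, 270 passed in the same direction with full water. Across all probe sets the 2 differences correlated with r of 0.66 and a rank correlation of 0.46, as a description. The difference of the 2 genotype effects passed for 192 probe sets (1.9%), with 111 above 0 (1.1%) and 81 below (0.802%). Before adjustment 1432 lay under 0.05 (14.2%). Of the 192 that passed, 143 had also passed under water deficit, and in 114 of the 143 the stressed difference was the larger in size. Keeping probe sets that passed under water deficit favours a larger stressed difference. That count therefore does not show that deficit widened the genotype differences. Stressed calls whose difference from the watered effect did not pass are not shown to be equal at both supplies. The difference draws on 4 groups, and its standard errors are larger.

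**Figure D5:**
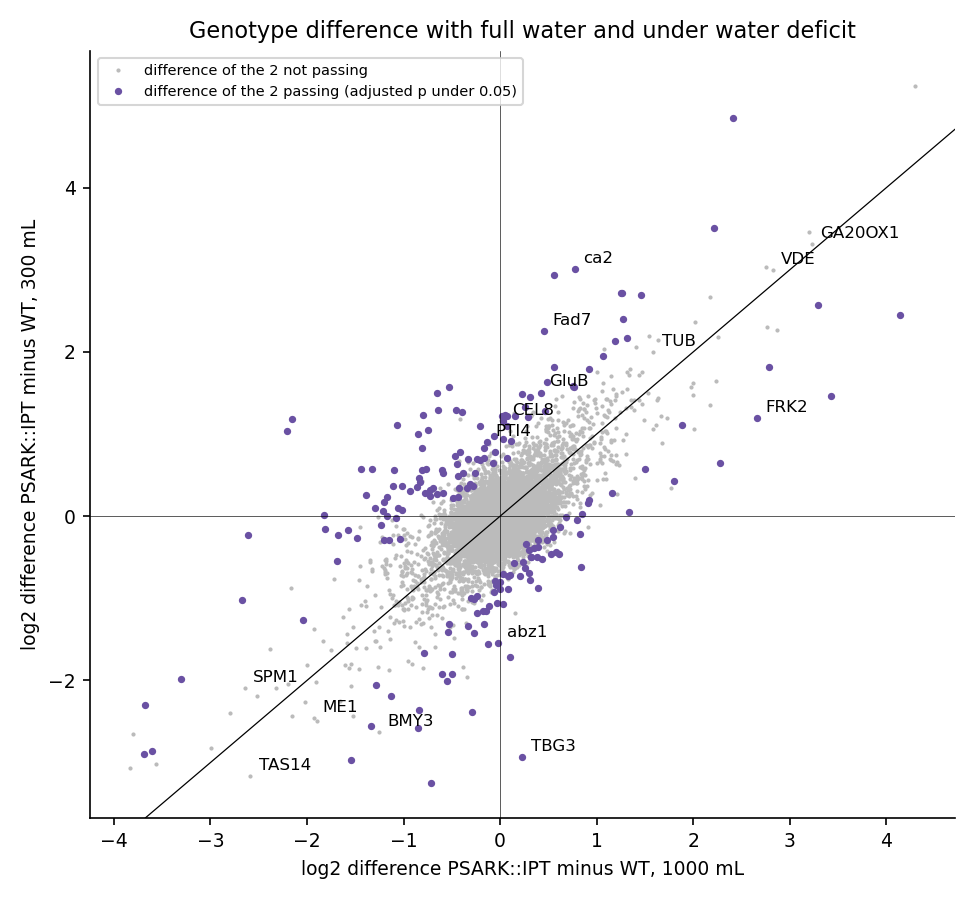
Log2 difference, PSARK::IPT minus WT, of all 10101 probe sets with 1000 mL (x axis) and 300 mL (y axis); each point is a probe set, purple points passed the test of the difference between the 2, and the diagonal marks equal values. VDE, GA20OX1, TAS14 and ME1 lie far from 0 on both axes, TBG3, abz1, ca2 and Fad7 mainly on the vertical one, and FRK2 below the diagonal.

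For several genes the genotypes differed far less with full water than under water deficit. The means of TBG3 were 5.27 (WT, watered), 8.48 (WT, stressed), 5.50 (IPT, watered) and 5.54 (IPT, stressed), so the stressed WT group was the one apart. Its genotype difference was 0.23 with full water and -2.94 under deficit (difference of the 2 -3.17, SE 0.17, adjusted p = 1.92e-08). For ca2 the means were 10.95, 8.36, 11.72 and 11.37 in the same order. Its genotype difference was 0.77 with full water and 3.01 under deficit (difference of the 2 2.23, SE 0.36, limma adjusted p = 0.00195). For Fad7 the means were 6.61, 5.24, 7.07 and 7.5, with a genotype difference of 0.46 with full water and 2.26 under deficit (difference of the 2 1.80, SE 0.17). The factor abz1 had means of 4.06, 5.42, 4.04 and 3.87 (-1.53, SE 0.22), again with stressed WT apart from the other 3 groups.

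CEL8 and GluB had another order. CEL8 had means of 3.76, 3.19, 3.80 and 4.35, lowest in stressed WT and highest in stressed IPT (1.12, SE 0.17). GluB had 2.84, 2.86, 3.26 and 4.37 (1.08, SE 0.24), with stressed IPT apart. All GluB means but that of stressed IPT lay below the lowest array median (3.38), as did the stressed WT mean of CEL8. Differences among such dim values say little. FRK2 had the smaller genotype difference under deficit, 2.66 with full water and 1.2 under it (-1.46, SE 0.17, adjusted p = 1.12e-04), with means of 5.44, 6.74, 8.10 and 7.94. Among the light-harvesting genes the test passed for CAB4 (-0.07 with full water, 0.65 under deficit; difference 0.71, adjusted p = 0.0134), and not with quantile normalization or the poly-A covariate. CAB5 (0.54) and CAB6A (0.23) did not pass it.

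By list, the lower values of protective genes were largely there with full water too. The median of the dehydration-protective list was -1.0 with full water and -0.99 under deficit, with 4 and 5 of the 6 genes lower. For the heat-shock list it was -0.51 and -0.60, with 5 of 8 lower at each supply. None of the 14 genes of these 2 lists passed the test of the difference (limma). An unadjusted p under 0.05 in that test was reached by 4 of the 8 heat-shock genes and 3 of the 6 dehydration-protective genes, against 14.2% of all probe sets. Equal differences at both supplies are therefore not shown for these lists. The light-harvesting median was -0.07 with full water, with 0 of 3 passing, and 0.48 under deficit, with 3 of 3 higher. The photosystem median was 0.46 with full water, with 4 of 5 higher, and 0.61 under deficit. The malate list stood at -0.27 and -0.33, with 5 and 6 of 10 lower. VDE (2.83 and 3.00), GA20OX1 (3.23 and 3.31), CrtR-b1 (-2.02 and -2.26), ME1 (-1.92 and -2.46) and TUB (1.59 and 2.0) differed between genotypes at both supplies, and the test of the difference did not pass for them.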

How the data were processed

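Total RNA from leaves was labelled as biotinylated cRNA and hybridised to 12 Affymetrix Tomato Genome Arrays, 1 per sample, per the labels' protocols. The deposited values are log2 expression values per probe set, summarised by the authors with RMA (robust multi-array average) per the submitters' processing notes. RMA sets the arrays to a common distribution, so a change shared by most genes would not be seen. Which RMA version and settings were used is not stated in the labels. Precision is limited by the 3 arrays per group.

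The 108 control probe sets (IDs starting AFFX) were left out of the tests and used as labelling checks. A linear model with the 4 groups was fitted to the other 10101 probe sets on all 12 arrays with limma 3.58.1 in R 4.3.3 (lmFit, eBayes; 8 residual and 7.99 prior degrees of freedom). The contrasts were IPT minus WT at 300 mL, the same at 1000 mL, and the difference of the 2. P-values were adjusted by Benjamini-Hochberg over all probe sets, with a threshold of 0.05. The script was tested on simulated data.

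Gene symbols came from the platform annotation, which dates from before the tomato genome and names tomato genes. A gene with several probe sets was read by the one of highest mean over the 12 arrays in list counts, and probe sets that disagreed are given. XTH16 and ca2 are quoted by the probe set that was furthest apart. The text names the 15 largest higher and 15 largest lower named genes that passed, every list member that passed and the 2 members of smallest p in each list, with other list members as values. The comparison, lists and members were chosen with earlier results of these data known. Lists were written as symbol patterns and then corrected, with 4 lists added (plastid isoprenoid, phenylpropanoid, light signalling and translation), once the annotation's symbols had been read. Control measures were tested by exact two-sided permutation. Whether replicate numbers pair the samples was checked by correlating deviations from the group means: same-numbered stressed arrays gave -0.04, 0.00 and -0.03, so the numbers were not used as pairs.

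Alternatives were median-centring, quantile normalization, a filter on dim probe sets, array weights, trended and robust moderation, the compared arrays alone, a replicate block, the poly-A 3' minus 5' difference as a covariate, and leaving out each array. The poly-A comparison without each array was added after seeing the data.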

Additional observations from a re-analysis of the deposited data

Results flagged for a closer look

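Of the 119 probe sets named by the rule given above, 111 had passed under water deficit. For 17 of the 119 the genotype difference under water deficit differed from that with full water. This was by the test of the difference itself in the same limma fit (adjusted p under 0.05 over all probe sets). For TBG3 the difference of the 2 was -3.17, for ca2 2.23, for Fad7 1.80, for abz1 -1.53, for FRK2 -1.46 and for XTH16 1.29. The values of ca2 and XTH16 are those of the probe set that was furthest apart under deficit. By its probe set of highest mean XTH16 did not pass this test. For LOC543605 it was -1.23, for CEL8 1.12, for GluB 1.08 (adjusted p = 0.024) and for PTI4 1.04 (adjusted p = 0.0244). LOC543802 stood at -0.865, GAL83 at -0.815, GPXle-1 at -0.74, hqt at -0.739, eIF-5A1 at -0.716, CAB4 at 0.714 and LAPA2 at -0.706, with adjusted p between 0.00569 and 0.0454.

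In FRK2 the watered difference was the larger in size, and in the other 16 the stressed one. Naming by the stressed difference favours this split, so it does not show that deficit widened the genotype differences. In TBG3, CAB4, PTI4, GAL83, eIF-5A1 and LAPA2 the signs of the stressed and watered differences were opposite, and the watered differences of PTI4 (-0.13), GAL83 (0.08), eIF-5A1 (0.15), LAPA2 (0.30), CAB4 (-0.07) and TBG3 (0.23) did not pass. The calls of 6 were lost in some fit that left out 1 stressed array. GAL83 did not pass without WT replicate 1 or 3 or IPT replicate 1 or 2 (adjusted p up to 0.0691), and GluB without WT replicate 1 or IPT replicate 2 or 3 (up to 0.0711). LAPA2 passed only when IPT replicate 2 was the array left out (up to 0.109 in the others). PTI4 did not pass without WT replicate 3 or IPT replicate 1 or 3 (up to 0.0714), eIF-5A1 without IPT replicate 2 or 3 (up to 0.0626), and hqt without WT replicate 2 or IPT replicate 1 or 3 (up to 0.0841). With the poly-A covariate 9 of the 17 no longer passed, XTH16, GluB, LOC543802, CAB4, GPXle-1, PTI4, LAPA2, hqt and eIF-5A1. The stressed WT arrays spread over 1.53 log2 units for ca2, lowest in replicate 2, and the part of that array in the difference was not tested beyond these fits.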

How the results depend on the processing

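No called value of the probe sets named by rule changed direction under an alternative. Which direction held more calls did change. Under water deficit the split of 832 higher and 850 lower became 856 and 827 with quantile normalization. With only the 6 compared arrays it was 700 and 667. The medians of 10 of the 30 lists, all reported between -0.06 and 0.08, changed sign under some alternative, to values between -0.06 and 0.05, so the sign of these medians carries no information. The count of probe sets that passed under water deficit, 1682, ranged from 1251 with the poly-A covariate to 1752 with trended and robust moderation, and from 1297 to 1518 over the fits without 1 stressed array. The count for the difference of the genotype effects, 192, depended more on the setting. It was 300 (144 below 0) among probe sets of above-median mean, 332 (173 above 0 and 159 below) with trended and robust moderation, and 105 (54 above and 51 below) with the poly-A covariate. It was 148 to 221 without 1 stressed array, and no watered array was left out for it. The causes were not tested, and the first of these fits was adjusted over fewer probe sets. With full water the split moved from 778 higher and 618 lower to 606 and 743 when arrays were centred on their medians. Of the 111 named probe sets that passed under water deficit, 80 passed in all 6 fits without 1 stressed array. With the poly-A covariate 35 of 119 changed their call, with only the 6 compared arrays 16, and with the replicate block 7, CAB5, gMDH, mMDH1, mdh, JERF3, GABA-TP1 and cdc2A-2. With that block, whose numbers share no measured pairing, 1587 probe sets passed under water deficit and 165 for the difference of the effects, and PTI4 and LAPA2 lost the latter call. The poly-A covariate moved called values by over 1.5 times in ZDS (0.24), vis1 (-0.47), TBG5 (-0.37), ALPHA-DOX2 (-0.27), ACO6 (0.24), GABA-TP1 (-0.25) and PHYA (-0.27). Quantile normalization did so in PSBO (0.31, adjusted p = 0.107) and gMDH (-0.49). Probe sets near the array median, with tomato probes on tobacco RNA, limit what a missed call can say.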
